A study of Arabidopsis thaliana with 6 samples.

Results

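The chloroplast-encoded transcription and translation genes are 30 rows of the gene table, taken by ID as a set of rpo, rps and rpl genes and matK, of 28775 genes in all. The rpo genes encode core subunits of the plastid-encoded RNA polymerase, the rps and rpl genes encode proteins of the small and large subunit of the plastid ribosome, and matK encodes a maturase that acts on plastid introns. The plastid-encoded polymerase needs sigma factors and attached proteins that are encoded in the nucleus and imported. Many proteins of the plastid ribosome are also encoded in the nucleus and imported. A phage-type polymerase of nuclear origin transcribes part of the plastid genome, the rpo genes included. Chloroplast introns are not removed by the spliceosome.

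The files give IDs only. A RefSeq note gave a protein name to 3 of the 30 IDs, among them ATCG00660 (ribosomal protein L20) and ATCG01310 (ribosomal protein L2). The other 27 are called here by ID, because no source used here ties each of them to a gene, and they were not divided into polymerase and ribosomal protein genes.

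RNA was measured in 15-day-old Arabidopsis plants, rosette leaves by the labels and seedlings by the methods, grown in short days and harvested 1 h before dark. Wild-type Col (ecotype Col-0) was compared with brr2a-2, listed in the labels as cao, a missense allele of the spliceosomal helicase gene BRR2a that came from a chemical mutagenesis and was studied in the Col background, and each genotype had 3 libraries labelled as biological replicates. Both genotypes were grown in parallel, and brr2a-2 stands for 1 allele. Because the allele is a missense change, the count of BRR2a does not check the labels. Ribosomal RNA was depleted and poly(A) RNA was not selected, a protocol that keeps transcripts without a poly(A) tail.

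The libraries held between 18692830 and 29830638 gene counts. Chloroplast genes took 43.4% ± 1.43 (SD, n = 3) of them in Col and 43.6% ± 3.18 (SD, n = 3) in brr2a-2, with overlapping groups. The 4 leaf markers summed to between 6627 and 17761 CPM (counts scaled to a common library size with TMM factors), the lowest value being that of Col replicate 1. The 8 root markers summed to between 11.3 and 14.8 CPM in Col and between 16.7 and 19.0 CPM in brr2a-2. Of the 5 root markers tested, 3 had a positive and 2 a negative log2 fold change (XTH14 at -0.39 and RHS19 at -0.71). CASP1 (0.70) alone had an unadjusted p under 0.05 in edgeR, where 6.93% of all genes tested were higher. NRT2:1 was at 0 counts in the 3 brr2a-2 libraries. Of the 4 leaf markers, RCA (log2 fold change 0.76) alone had all brr2a-2 libraries above all Col libraries, and CAB1 alone had a negative value, -0.17. The part of these differences in the results was not tested. In bulk samples, fewer cells of a type and less RNA per cell cannot be told apart.

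The sequences of the genes for L20 and L2 are given to show which of them has a second copy. The 30 first coding bases are from RefSeq, build TAIR10.1, with the start codon in capitals. The authors aligned to TAIR10 and the count tables hold no coordinates. RefSeq has rpl20 at Pltd:68512-68865 on the minus strand and 2 copies of rpl2, at Pltd:84337-85843 on the minus strand and Pltd:152806-154312 on the plus strand.
rpl20: ATGactagaattaaacgcggatatatagct
rpl2, first copy: ATGgcgatacatttatacaaaacttctacc
rpl2, second copy: ATGgcgatacatttatacaaaacttctacc
The 2 copies of rpl2 are identical over all 1507 bases, introns included. They lie in the inverted repeat, a stretch of 26264 bases that the chloroplast genome of 154478 bases holds once in each direction. RefSeq has 31 chloroplast loci named rpo, rps, rpl or matK, of which 8 lie wholly in the repeat. None of the 100-base windows of those 8 occurs once in the genome, whereas 92.2% or more of the windows did for each of the other 23 loci.

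The members' counts fell into 2 ranges. In 21 members each library held at least 1340 counts, whereas in the other 9 no library held more than 555 counts. ATCG00040 had 0 counts in all 6 libraries, which allows a counted level of up to 0.0906 to 0.167 CPM in a library (3 counts, counting error only). That bound holds for reads as they were assigned to genes. Whether reads of this gene went uncounted was not tested, so the 0 does not show that its transcript was absent. The other 8 sparse members ranged from 0 to 555 counts in a library.

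The 21 members with high counts were each higher in brr2a-2 than in Col on average. L20, a protein of the large subunit, stood at 432, 549 and 621 CPM in Col (mean 534 ± 95.2, SD, n = 3) and at 1059, 762 and 1211 CPM in brr2a-2 (mean 1011 ± 228, SD, n = 3). Every brr2a-2 library was above every Col library. The fitted difference was 1.89-fold, a log2 fold change of 0.92 (SE 0.26), with an edgeR unadjusted p of 0.00898 and an adjusted p of 0.232. The adjusted p lay between 0.0212 (DESeq2) and 0.278 over the alternatives that kept all 6 libraries. L20 was the only member with an adjusted p under 0.05 in DESeq2, where 366 of 18708 genes were higher at that threshold. Of the 85 tested chloroplast genes outside the members, 5 were higher at that threshold, with a lowest adjusted p of 0.00110. Per kilobase of coding length, L20 was at 1509 ± 269 CPM in Col and 2855 ± 645 CPM in brr2a-2 (SD, n = 3 each).

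**Figure D1:**
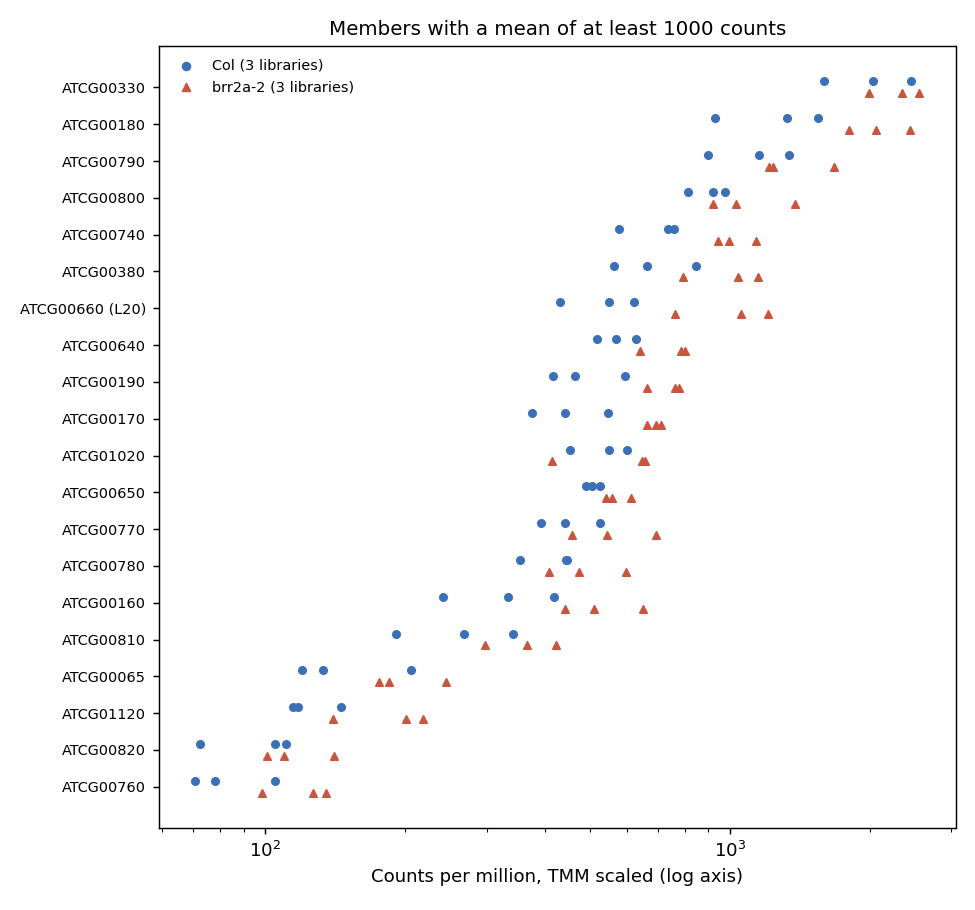
Level of 20 of the 21 members with high counts in each library, in CPM scaled by TMM (log axis), with members in rows. Circles are the 3 Col and triangles the 3 brr2a-2 libraries, and ATCG00660 (L20) shows all triangles, from 762 to 1211, above all circles, from 432 to 621.

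Of the other members with high counts, ATCG00180 had the next largest fold change. It stood at 928, 1331 and 1548 CPM in Col and at 2446, 1803 and 2067 CPM in brr2a-2. The groups did not overlap, and the log2 fold change was 0.73 (SE 0.27, edgeR adjusted p = 0.305). ATCG00160 stood at 242, 418 and 334 CPM in Col and at 650, 510 and 442 CPM in brr2a-2. Here too no brr2a-2 library was as low as a Col library, with a log2 fold change of 0.69 (SE 0.27, edgeR adjusted p = 0.321).

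ATCG00170 stood at 441, 546 and 375 CPM in Col and at 712, 662 and 695 CPM in brr2a-2. ATCG00190 stood at 464, 594 and 416 CPM in Col and at 779, 664 and 764 CPM in brr2a-2. In both IDs the brr2a-2 libraries were closer together than the Col libraries and all above them, and the log2 fold changes were 0.60 (SE 0.21) and 0.58 (SE 0.22). ATCG00740 stood at 735, 758 and 578 CPM in Col and at 1138, 943 and 996 CPM in brr2a-2, with a log2 fold change of 0.57 (SE 0.21). ATCG01120 stood at 115, 118 and 146 CPM in Col and at 219, 140 and 201 CPM in brr2a-2, so that its groups overlapped, with a log2 fold change of 0.56 (SE 0.22). The edgeR adjusted p was 0.283, 0.304, 0.304 and 0.328 for these 4 IDs in the order given. L20 and these 6 IDs are 7 of the 8 members with an unadjusted p under 0.05, and apart from L20 they were chosen for printing after their values were seen.

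At the other end, ATCG01020 stood at 454, 549 and 602 CPM in Col and at 658, 415 and 646 CPM in brr2a-2. Its lowest library was a brr2a-2 library, and the log2 fold change was 0.10 (SE 0.25, edgeR adjusted p = 0.886). ATCG00650 and ATCG00330 had log2 fold changes of 0.17 and 0.18, and these 3 IDs too were chosen after their values were seen. The libraries of ATCG00650 did not overlap between genotypes, at 490, 506 and 527 CPM in Col and 614, 542 and 559 CPM in brr2a-2, although the difference was 1.13-fold.

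No member was called. Of the 27 members that passed the filter on low counts, 0 had an adjusted p under 0.05 with at least a 2-fold difference in edgeR, against 0% of the 19121 genes tested in either direction. At an unadjusted p under 0.05, 8 members were higher in brr2a-2 and 0 lower, where 6.93% of all genes tested were higher. DESeq2 also called 0 members, where it called 1.3% of all genes higher and 0.941% lower. In 9 members all brr2a-2 libraries were above all Col libraries, against 10.8% of all genes tested. The log2 fold change was positive in all 27, between 0.10 and 1.09, and positive in 46.1% of all genes. The median was 0.51 over the members and -0.04 over all genes tested. The members were measured in the same libraries and are not independent of each other.

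The count of 8 moved when a library was left out. Without Col replicate 2 it stayed at 8, without brr2a-2 replicate 1 it was 1, without Col replicate 1 it was 3, without brr2a-2 replicate 2 or 3 it was 4, and without Col replicate 3 it was 5. Because each of these fits had 1 library fewer, dependence on a library and the loss of a replicate cannot be told apart in these counts. The median log2 fold change of the members lay between 0.40 and 0.64 in them. The log2 fold change stayed positive in 25 of 27 without Col replicate 1 and in 26 without brr2a-2 replicate 1, and in all 27 when any other library was left out.

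**Figure D2:**
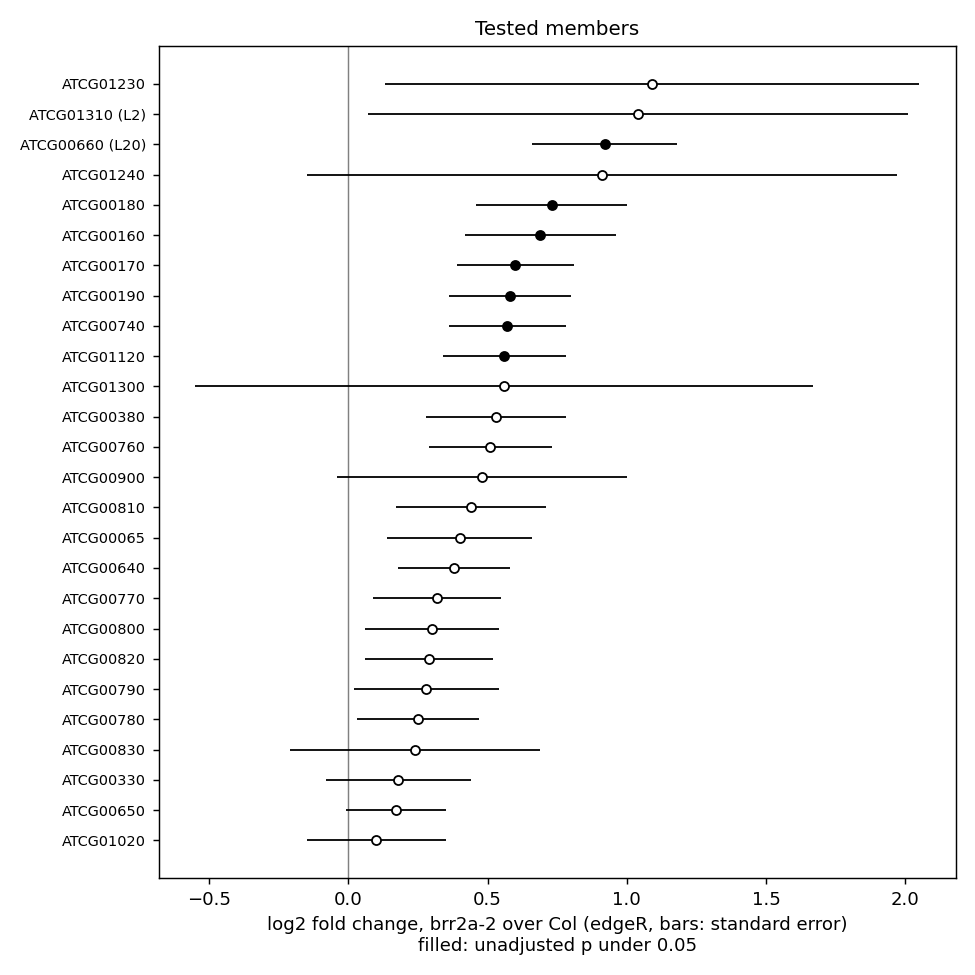
Log2 fold change of brr2a-2 over Col for 26 of the 27 members tested, in rows, with standard errors from edgeR as bars. All points lie right of 0, from 0.10 to 1.09, and the 7 filled points are members with an unadjusted p under 0.05.

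Summed over the 30 members, the share of all gene counts was 1.3, 1.27 and 1.13% in Col (mean 1.23% ± 0.0924, SD, n = 3) and 1.73, 1.53 and 1.51% in brr2a-2 (mean 1.59% ± 0.121, SD, n = 3). The groups did not overlap, and the ratio of the means was 1.29. The share of the counts of all 133 chloroplast genes was 3.01, 3.02 and 2.51% in Col and 3.90, 3.81 and 3.26% in brr2a-2. Those groups did not overlap either, and the ratio of the means was 1.28.

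A single chloroplast gene weighed on that share. ATCG00020, the gene with the most counts, took 52.7, 50.8 and 56.6% of the chloroplast counts in Col and 46.9, 48.0 and 47.8% in brr2a-2. This share was lower in every brr2a-2 library than in any Col library, whereas its share of all gene counts overlapped between the genotypes (21.3 to 25.4% in Col and 19.3 to 22.2% in brr2a-2). With ATCG00020 left out of the chloroplast counts, the members' share was 6.36, 6.14 and 5.79% in Col and 7.34, 7.33 and 6.25% in brr2a-2. The groups then overlapped, and the ratio of the means was 1.14. With ATCG00020 left out of all gene counts, the members' share was 1.69, 1.61 and 1.51% in Col and 2.18, 1.89 and 1.94% in brr2a-2. On that base the groups did not overlap, and the ratio of the means was 1.25.

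**Figure D3:**
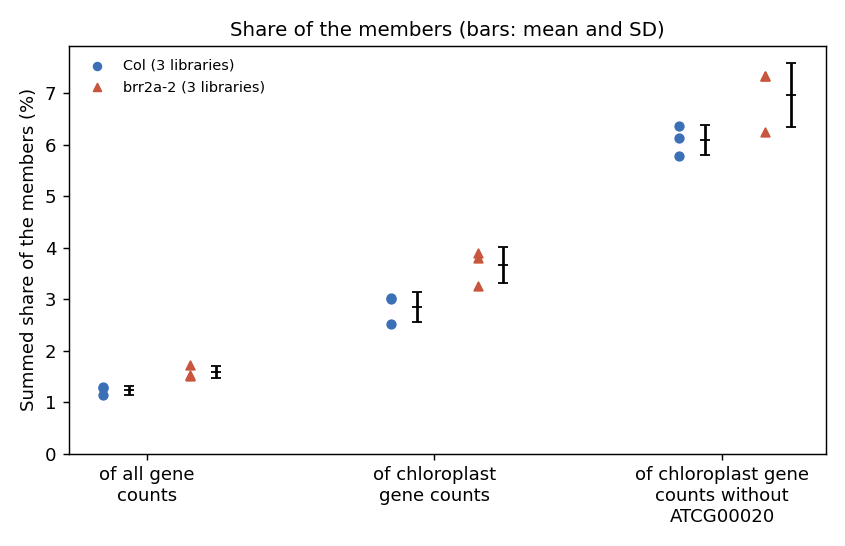
Summed share of the 30 members, in percent, of all gene counts, of the chloroplast gene counts and of the chloroplast gene counts without ATCG00020. Points are libraries and bars the mean with its SD, and the genotypes are apart in the first 2 shares (up to 1.3 against 1.51 or more, and up to 3.02 against 3.26 or more) but overlap in the third.

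To compare the members within the chloroplast transcripts, the fit was repeated with the summed chloroplast counts as library sizes. The median log2 fold change of the members was then 0.46, against 0.15 over the 85 other chloroplast genes tested. Over all genes tested, most of them not from the chloroplast, it was -0.11. At an unadjusted p under 0.05 the count fell to 4 members higher, L20, ATCG00160, ATCG00180 and ATCG01120, where 4.26% of all genes tested were higher. The libraries did not overlap in 8 members with brr2a-2 higher, against 6.11% of all genes, and in 0 members with brr2a-2 lower, against 11.4%. The log2 fold change of L20 was 0.84 on this scale. The median fell to 0.21 with TMM factors computed among the chloroplast genes.

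Of the other 103 chloroplast genes, 85 were tested. With TMM over all genes, 12 were higher and 1 lower at an unadjusted p under 0.05, against 6.93% and 7.47% of all genes tested. A positive log2 fold change was found in 60 of the 85, against 46.1% of all genes, and the median was 0.21. One of those higher, ATCG00940, singled out after its values were seen, had 70525 counts in brr2a-2 replicate 1 and between 3 and 557 counts in the other libraries. In 18 of the 85 the brr2a-2 libraries were all above the Col libraries, against 10.8% of all genes tested. In 3 they were all below, against 10.2%. On chloroplast totals the median was 0.15, with 11 higher and 2 lower at an unadjusted p under 0.05 in edgeR. Over all genes tested, 4.26% were higher and 1522 of 19121 lower on that scale. The libraries then did not overlap in 20 of the 85 with brr2a-2 higher and in 6 with brr2a-2 lower. The shares over all genes were 6.11% and 11.4%. The difference between the other chloroplast genes and the members was not tested.

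ATCG01310 (L2), whose gene has 2 identical copies in RefSeq, had 13, 419 and 196 counts in Col and 418, 555 and 282 counts in brr2a-2. Col replicate 1 stood far below the other 5 libraries, although it had the most counts in all. The same library was lowest in ATCG01230 (2, 55 and 19 counts in Col, 47, 81 and 27 in brr2a-2), in ATCG01240 (1, 131 and 55 against 106, 151 and 82) and in ATCG01300 (0, 35 and 16 against 32, 33 and 8). The 4 IDs had fitted log2 fold changes of 1.04, 1.09, 0.91 and 0.56 with SE of 0.97, 0.96, 1.06 and 1.11. Without Col replicate 1 these values were 0.46, 0.50, 0.31 and -0.07. Low counts in Col replicate 1 were not particular to the members. That library was also lowest in ATCG01250 (0, 133 and 46 counts in Col, 86, 186 and 76 in brr2a-2). The same held in ATCG01280 (3, 95 and 35 against 89, 134 and 62), whereas it was highest in ATCG01030 (92, 34 and 20 against 31, 44 and 30). These IDs, outside the members, were chosen after their values were seen. ATCG00830 and ATCG00900 held between 10 and 31 counts in a library and had log2 fold changes of 0.24 and 0.48. ATCG00840 and ATCG00905 held at most 5 counts in a library and, with ATCG00040, were the 3 members under the filter.

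The sparse members together made between 0.0134 and 0.289% of the members' counts, the lowest value being that of Col replicate 1. Left out, they changed the share of all gene counts little (1.23% in Col and 1.59% in brr2a-2), and the median log2 fold change of the remaining 21 was 0.44. How reads that fit both copies of the repeat were counted is not given in the sources used here, and its part in these low counts was not tested.

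**Figure D4:**
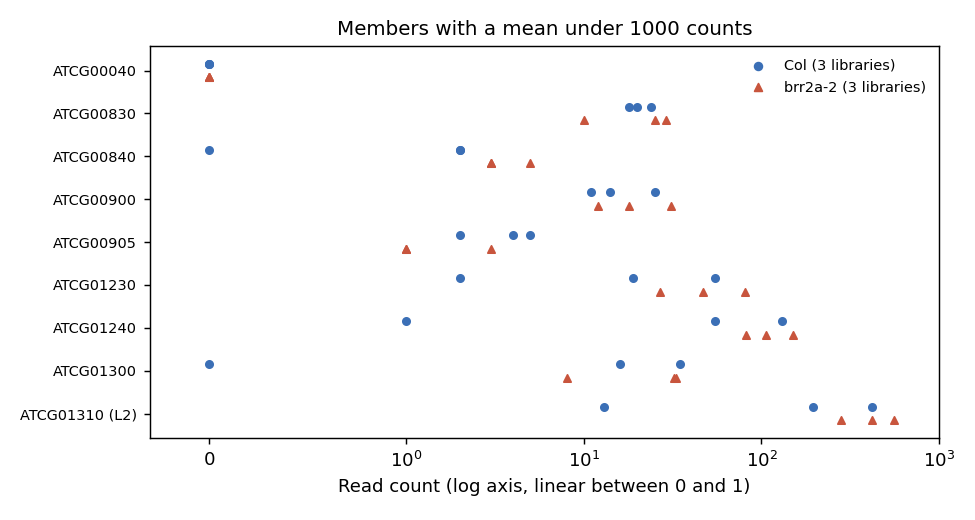
Read counts of the 9 members with a mean under 1000 counts in each library, on a log axis that is linear between 0 and 1. Circles are Col and triangles brr2a-2, and the circle of Col replicate 1 lies lowest in the 4 bottom rows, at 2, 1, 0 and 13 counts.

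The nuclear genes whose products work with the members were looked up by locus tag in RefSeq, where all 87 IDs of the nuclear lists matched, and are called by RefSeq's symbols. Of 10 genes for sigma factors, sigma factor binding proteins and polymerases, 2 were higher and 1 lower at an unadjusted p under 0.05 in edgeR. Over all genes tested, 6.93% were higher and 7.47% lower. At the adjusted threshold 0 of the 10 passed in edgeR, as did 0 of all 19121 genes tested. Sigma factors let the plastid-encoded polymerase recognise promoters. SIGE (AT5G24120, sigma factor 5) stood at 15.7, 24.4 and 16.4 CPM in Col and at 126, 80.9 and 33.2 CPM in brr2a-2. Every brr2a-2 library was higher, with a wide spread among them, and the log2 fold change was 2.09 (SE 0.47, edgeR adjusted p = 0.184). DESeq2 gave an adjusted p of 0.000908, and over the alternatives that kept all libraries it reached 0.229.

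SIB1 (AT3G56710), a sigma factor binding protein, stood at 42.2, 7.91 and 3.96 CPM in Col and at 2.82, 3.72 and 0.834 CPM in brr2a-2. The value of Col replicate 1 stood apart from the other 5. The log2 fold change was -2.87 (SE 0.95, edgeR adjusted p = 0.269), and -1.26 without that library. DESeq2 gave an adjusted p of 0.0175, and over the alternatives that kept all libraries it lay between 0.0175 and 0.314. SIB2 (AT2G41180) had a log2 fold change of -1.01 (SE 0.54), and -0.37 without Col replicate 1.

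AT5G15700, annotated as a DNA/RNA polymerase, stood at 25.1, 21.6 and 22.4 CPM in Col and at 34.7, 43.7 and 29.8 CPM in brr2a-2. Its groups did not overlap, and the log2 fold change was 0.65 (SE 0.19, edgeR adjusted p = 0.235). SCA3 (AT2G24120), with the same annotation, had 0.23 (SE 0.31). SIGA, SIG2, SIGC, SIG4 and SIGF had log2 fold changes of 0.62, 0.20, 0.36, 0.28 and 0.22, all with overlapping libraries.

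**Figure D5:**
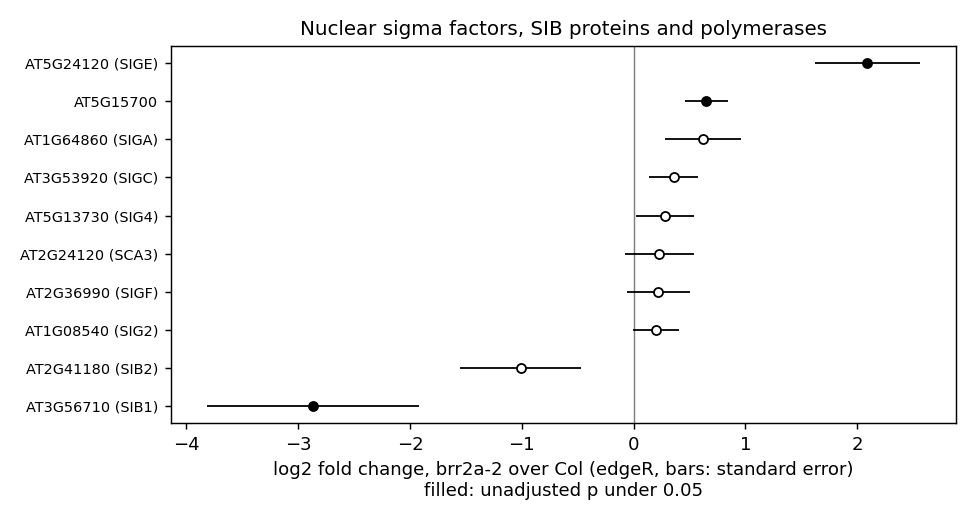
Log2 fold change of brr2a-2 over Col for 10 nuclear genes for sigma factors, their binding proteins and polymerases, with standard errors from edgeR as bars. SIGE lies farthest right at 2.09 and SIB1 farthest left at -2.87, and filled points have an unadjusted p under 0.05.

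Of 39 nuclear genes for plastid ribosomal proteins, 38 were tested, and 6 were lower and 0 higher at an unadjusted p under 0.05, where 7.47% of all genes tested were lower. All 38 had a negative log2 fold change, as had 53.9% of all genes tested, with a median of -0.39. These values leaned on Col replicate 2, which was the highest of the 6 libraries in all 38 genes. Without it, 27 of the 38 had a negative log2 fold change, 3 were lower at an unadjusted p under 0.05 and the median was -0.11, and without Col replicate 1, 17 were lower and the median was -0.56. Without brr2a-2 replicate 1 the count of lower genes was 2, and without brr2a-2 replicate 3 it was 3. With all libraries, 0 passed the adjusted threshold in edgeR or DESeq2 with at least a 2-fold difference. The libraries did not overlap, with brr2a-2 lower, in 10 of them against 10.2% of all genes tested. RPL9 (AT3G44890), of the large subunit, stood at 84.3, 111 and 77.3 CPM in Col and at 52.8, 49.7 and 58.2 CPM in brr2a-2. No brr2a-2 library reached a Col library, and the log2 fold change was -0.76 (SE 0.19, edgeR adjusted p = 0.207). DESeq2 gave an adjusted p of 0.0256, and over the alternatives that kept all libraries it reached 0.260. RPL15, AT2G43030 (a ribosomal protein L3 family gene) and PRPL28 had log2 fold changes of -0.64, -0.63 and -0.53, with edgeR adjusted p of 0.233, 0.309 and 0.245.

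Of 12 genes for proteins attached to the plastid-encoded polymerase, among them PTAC3 and PTAC2, 0 had an unadjusted p under 0.05 in edgeR, and the median log2 fold change was -0.26. Of 10 genes for plastid intron splicing factors 0 did, with a median of 0.16. Of 4 genes for plastid ribonucleases 1 did, which was RNEE/G (AT2G04270), an RNase E/G-like protein, at 27.8, 44.6 and 34.1 CPM in Col and 62.8, 53.7 and 55.6 CPM in brr2a-2. Its groups did not overlap, and the log2 fold change was 0.69 (SE 0.21, edgeR adjusted p = 0.244). DESeq2 with the same thresholds called 0 genes in these 3 lists. Over all genes tested, 6.93% were higher and 7.47% lower at an unadjusted p under 0.05 in edgeR.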

How the data were processed

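RNA was sequenced from 3 Col and 3 brr2a-2 samples. The deposited gene and intron counts are whole reads per feature that, per the labels and methods, the authors made with Trimmomatic 0.32, TopHat2 on TAIR10 and HTSeq. The labels and the methods name different extraction kits and call the tissue rosette leaves and seedlings. The intron table held 0 chloroplast introns and gave no value. Genes were tested with edgeR 4.0.16 (quasi-likelihood F-test, filterByExpr with a minimum count of 10, TMM, genotype only, Benjamini-Hochberg over 19121 genes) and called at an adjusted p of 0.05 and a log2 fold change of 1. DESeq2 1.42.0, 1 RUVg factor from 5000 control genes, other scalings, no filter, a replicate block and leaving out each library were alternatives. The fit was tested on simulated data. CPM were scaled by TMM factors.

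Named members were to be matK, the rpo genes, the 3 largest changes in each direction and the highest ribosomal protein gene per length. Because 27 members have an ID only, the parts of that rule that need a name, and classes of chloroplast genes, were not applied. Of the nuclear lists, the sigma factor and polymerase genes and up to 4 genes in each direction with an unadjusted p of 0.05 were named. Members and lists were chosen with earlier results of these data known. The values of 1 member are not reported here, although it stays in the counts and sums. P-values set the genotype difference against the spread between these libraries, which edgeR and DESeq2 estimate with information shared over genes.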

Additional observations from a re-analysis of the deposited data

How the results depend on the processing

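The call of 0 members, in either direction, did not change under any alternative run, and that of 0 other chloroplast genes did not change on chloroplast totals or when each library was left out, the alternatives run for it. The median log2 fold change of the members lay between 0.40 and 0.64 when each library was left out and between 0.45 and 0.52 under other tools and scalings that kept all libraries. On chloroplast totals it lay between 0.30 and 0.55 when each library was left out, was 0.21 with TMM among chloroplast genes, and 0.29 without ATCG00020 in the totals, an alternative chosen after seeing the data, as was leaving out the sparse members. The difference in share was 0.287 to 0.396 percentage points of all gene counts, and 0.642 to 1.01 of chloroplast counts, when each library was left out. Over all genes, DESeq2 called 243 higher and 176 lower. The fit with 1 RUVg factor gave 5 and 4, that with no filter 2 and 1, and that without Col replicate 1 gave 1 and 1. The main edgeR fit and the remaining alternatives for the members gave 0 and 0. Outside DESeq2 the call of 0 members was therefore close to fixed in advance. Over all genes 1326 had an unadjusted p under 0.05 with brr2a-2 higher and 1428 with brr2a-2 lower, whereas on chloroplast totals these numbers were 815 and 1522. Among nuclear partner genes DESeq2 called 2 (SIGE and SIB1) and 1 RUVg factor called 1 (SIB1), against 0; the cause was not tested. Among the 41 members and nuclear genes followed singly through the alternatives, signs turned only when a library was left out. This was so in ATCG01020 (-0.01 to 0.29), ATCG01300 (-0.07 to 1.61) and SCA3 (-0.02 to 0.48). Of the 38 plastid ribosomal protein genes tested, 37 stayed negative with 1 RUVg factor and 36 with a replicate block.

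In the fit with a replicate block, 5 members had an unadjusted p under 0.05, and the median log2 fold change was 0.52 (0.45 on chloroplast totals). The differences in share within same-numbered pairs were 0.427, 0.260 and 0.383 percentage points of all gene counts. Of chloroplast counts they were 0.892, 0.790 and 0.746. Their means, 0.357 and 0.809, equal the differences of the group means under any pairing. Deviations of same-numbered libraries correlated at 0.04, 0.23 and 0.42, and not every library correlated best with its own number, so that the numbers were not taken as pairs. Alternatives without chloroplast rRNA and tRNA genes or without the genes of the inverted repeat were not run, because no source used here ties those IDs to genes, and those for introns could not give a value.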
